A study of Rattus norvegicus with 31 samples.

Results

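The major histocompatibility complex of the rat, RT1, encodes the proteins that display peptides to T cells, and this report follows its transcripts in the liver of rats given 3 pesticides. The genes were chosen by name: every gene whose symbol begins with RT1-, together with Cd74, B2m, Tap1, Tap2, Tapbp, Ciita, Psmb8, Psmb9 and Psmb10, with at least 2 reads summed over the 31 libraries. Of 50 candidate genes 48 met this, out of 19904 genes tested: 27 class I or class I-like genes, 12 class II genes and 9 accessory genes. Of the 48, 32 reached a mean of 1 CPM (counts-per-million of a library's scaled total), and these were 19 class I genes, 4 class II genes and all 9 accessory genes.

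Young adult female Wistar rats of the outbred Crl:WI stock were dosed daily by oral gavage for 28 days, and total RNA of the liver was sequenced for 1 dose of each treatment, the level named high, which was not the highest given. Thiacloprid (THI) and clothianidin (CTD) are neonicotinoid insecticides and imazalil (IMZ) is an azole fungicide. The 8 control rats received the vehicle, aqueous carboxymethyl cellulose, which the treated rats received too. THI was given at 108 mg/kg body weight per day (n = 4), IMZ at 93 (n = 4) and CTD at 288 (n = 3). The study marks this CTD group as having lost at least 1 rat, killed when moribund. The mixtures, with 4 rats each, held 54 of THI with 46 of IMZ, 54 of THI with 134 of CTD, and 46 of IMZ with 135 of CTD, in the same unit. Each library is 1 rat, so the errors given here are between rats.

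Class I molecules are found on nearly all nucleated cells and present peptides from the cytosol. The immunoproteasome cuts these peptides, the Tap1 and Tap2 transporter carries them into the endoplasmic reticulum, tapasin (Tapbp) helps to load them, and B2m is the light chain of the class I molecule. Class II molecules are made mainly by professional antigen-presenting cells, in the liver Kupffer cells and dendritic cells among others, under the control of the transactivator Ciita, and their chains are guided to endosomes by the invariant chain Cd74. Interferons raise the transcription of many of these genes.

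Promoter sequences were read to show what the members shared in their letters besides their names. RefSeq promoters of the GRCr8 assembly, each of 250 bases before and 50 bases after the gene's start, were found for 41 of the 46 member symbols, and all 33 RT1 promoters among them lie on chromosome 20. The letters GATTGG, the core of the Y box of class II promoters, stood on either strand in 9 of 9 class II promoters, in 13 of 24 class I promoters and in 2 of 8 accessory promoters, compared with 14.8% of 33469 promoters. The 4 class II genes with a mean of 1 CPM or more and the 3 class I genes with the highest mean CPM are shown for this reason, with the match in capitals. In these 3 class I genes the letters stood on the opposite strand, and whether they are part of a Y box was not tested. Each sequence is read 5′ to 3′ on the gene's own strand, and CCAATC is GATTGG on the opposite strand.
RT1-Ba (chr20:4576968-4577032, plus strand): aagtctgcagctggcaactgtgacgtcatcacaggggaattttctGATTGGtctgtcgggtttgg
RT1-Bb (chr20:4604161-4604225, minus strand): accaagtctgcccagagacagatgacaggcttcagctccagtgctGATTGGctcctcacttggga
RT1-Da (chr20:4515320-4515384, plus strand): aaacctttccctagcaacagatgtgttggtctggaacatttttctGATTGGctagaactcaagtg
RT1-Db1 (chr20:4560224-4560288, minus strand): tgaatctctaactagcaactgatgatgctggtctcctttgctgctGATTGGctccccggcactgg
RT1-A1 (chr20:4907157-4907221, plus strand): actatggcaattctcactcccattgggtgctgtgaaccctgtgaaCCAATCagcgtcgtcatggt
RT1-A2 (chr20:4872770-4872834, plus strand): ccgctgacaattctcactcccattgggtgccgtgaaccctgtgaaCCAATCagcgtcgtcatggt
RT1-CE5 (chr20:3484119-3484183, minus strand): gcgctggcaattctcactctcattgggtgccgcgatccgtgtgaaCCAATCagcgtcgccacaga

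The second set of letters was GAAA, any 2 bases and GAAA again on either strand, the core of the interferon-stimulated response element, which no match of GATTGG overlapped in any member. It stood in 6 of 8 accessory promoters, 3 of 24 class I promoters and 0 of 9 class II promoters, compared with 3.92% of all promoters. The 9 members that held it were Psmb8, Tap2, RT1-S3 and RT1-S2, which fell in CTD, and B2m, Psmb10, Tap1, Tapbp and RT1-N3, which were not called there. Of the 3 members called in THI + IMZ, Psmb8 held it and RT1-T24-3 and RT1-CE15 did not. The 4 that fell in CTD, a set chosen after the values were seen, are shown, with the match in capitals and TTTC, any 2 bases and TTTC as its form on the opposite strand. A match describes the letters in this window and does not show that a factor binds there. In CTD 1 of 17 measured interferon-stimulated genes was called, and it was higher, against 12.7% of all genes called. These genes summed to 343 ± 49.8 CPM in CTD (SD, n = 3) and 326 ± 50.02 in controls (SD, n = 8). Their median log2 fold change in CTD was -0.22 (-1.13 to 1.09), against -0.07 for all genes. Whether the letters bear on the fall in CTD was not tested.
Psmb8 (chr20:4657006-4657085, minus strand): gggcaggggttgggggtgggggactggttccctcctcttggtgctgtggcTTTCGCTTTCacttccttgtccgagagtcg
Tap2 (chr20:4652308-4652387, minus strand): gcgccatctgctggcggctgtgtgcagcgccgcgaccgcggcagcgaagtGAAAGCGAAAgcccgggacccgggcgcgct
RT1-S3 (chr20:2675366-2675445, plus strand): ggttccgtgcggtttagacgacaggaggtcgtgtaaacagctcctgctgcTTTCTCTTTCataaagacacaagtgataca
RT1-S2 (chr20:2654847-2654926, plus strand): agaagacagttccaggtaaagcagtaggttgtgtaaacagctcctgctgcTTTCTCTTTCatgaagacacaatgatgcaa

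The libraries held 31820322 to 101230067 counts (median 40989382), and the median correlation of a library with the others of its group was between 0.971 and 0.990. Hepatocyte markers were present in every group. Defining markers of B cells (Ms4a1, Pax5), of T cells (Cd3e, Cd3g, Cd3d) and of NK cells (Ncr1) were below 0.1 CPM, whereas Kupffer cell markers summed to 477 ± 77.9 CPM in controls (SD, n = 8). In bulk liver, fewer cells of a type and less RNA per cell cannot be told apart.

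Compared with controls, 7 calls were made among the 48 genes, all of them lower and none of them in class II. In the edgeR quasi-likelihood test, with the Benjamini-Hochberg adjustment over all genes and a threshold of 0.05, CTD lowered 4 members (8.33%) against 12.7% of all genes called and 6.03% called lower. THI + IMZ lowered 3 members (6.25%) against 1.18% of all genes called and 0.332% called lower. No member was called in THI (0.543% of all genes called), IMZ (0.251%), THI + CTD (4.39%) or IMZ + CTD (1.46%). Before adjustment, 2, 5, 9 and 3 members had a p under 0.05 in these treatments, or 4.17%, 10.4%, 18.8% and 6.25% of them against 8.68%, 8.08%, 17.6% and 12.8% of all genes, and DESeq2 called 0 members in each of these 4 comparisons.

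Below the threshold, more members had a fold change below 0 than above 0 in each treatment. Among the 32 members of 1 CPM or more, the log2 fold change was below 0 for 23 in THI, 20 in IMZ, 25 in CTD, 30 in THI + IMZ, 28 in THI + CTD and 22 in IMZ + CTD. The shares were 71.9%, 62.5%, 78.1%, 93.8%, 87.5% and 68.8%, compared with 49.5%, 52.1%, 51.8%, 49.2%, 49.1% and 52.0% of the 11250 genes of that level. The 6 comparisons share the 8 control rats, so their directions are not independent of each other. Nor are the members independent: several class I genes were low in the same rats, and the class II chains varied with Cd74. A few rats can therefore move many members at once. The shift was uneven between the classes. For the 19 class I genes of 1 CPM or more, the median log2 fold change was between -0.12 (THI) and -0.46 (THI + IMZ). For the 4 class II genes of that level it ran from 0.38 in IMZ to -0.46 in IMZ + CTD. Over all 27 class I genes the median was -0.11 in THI (-0.19 to -0.05 when 1 library was left out). With a replicate block it was 0.0058 there. In THI + IMZ it was -0.47 (-0.64 to -0.42 when 1 library was left out). The median over all genes tested was between -0.01 and -0.07.

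**Figure D1:**
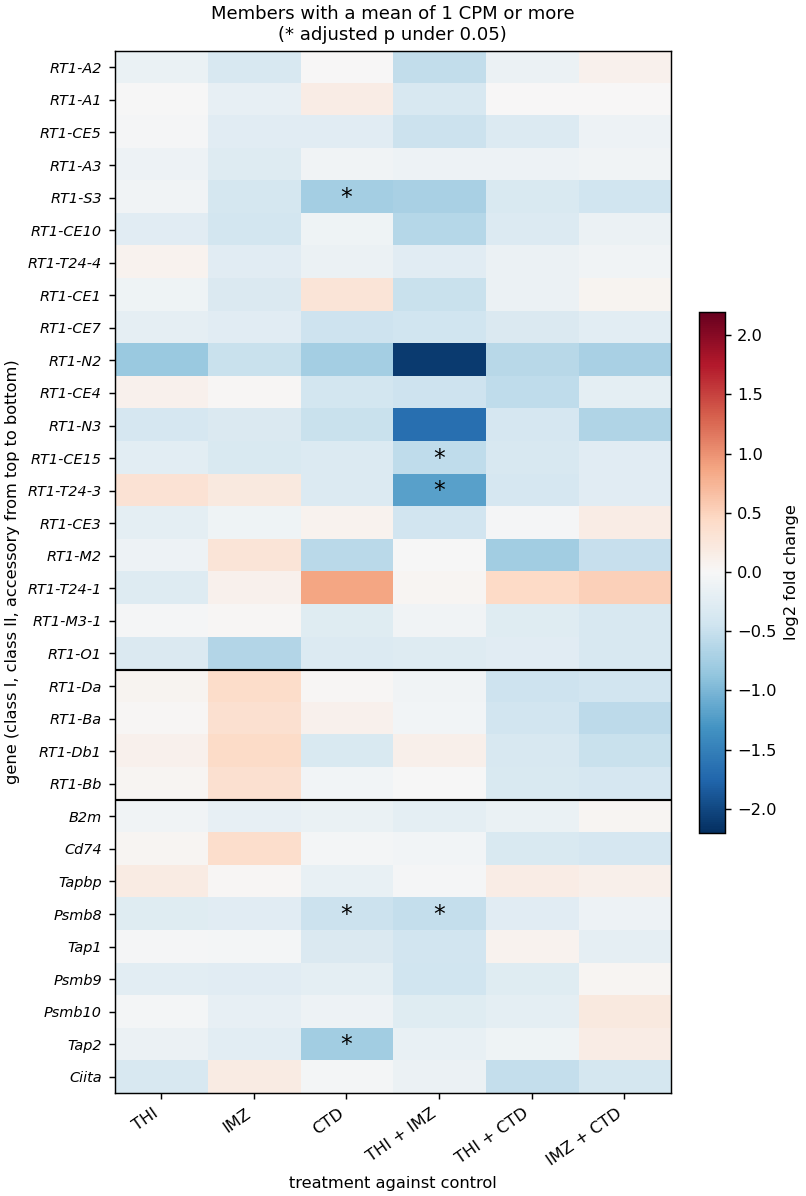
Log2 fold change against control of the 32 members with a mean of 1 CPM or more (rows, by class) in the 6 treatments (columns), from the 7-group edgeR fit. An asterisk marks an adjusted p under 0.05. In THI + IMZ 30 of the 32 members are below 0, and the 4 class II chains differ in direction between IMZ and IMZ + CTD.

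Class II transcripts differed widely between rats of 1 group, and no class II gene was called in any treatment by edgeR or DESeq2 (0 members at an unadjusted p under 0.05, save RT1-Ba in IMZ + CTD). RT1-Da, the alpha chain of the D molecule, was at 27.1, 36.0 and 56.7 CPM in the lowest, median and highest control. In IMZ it was at 71.7, 37.0, 56.3 and 29.2 CPM. In IMZ + CTD it was at 21.3, 27.9, 21.01 and 38.9 CPM. The values of IMZ reached above the highest control and those of IMZ + CTD below the lowest, but both groups overlapped the controls.

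RT1-Ba, the alpha chain of the B molecule, was at 16.4, 26.2 and 39.9 CPM in the lowest, median and highest control. In IMZ + CTD it was at 15.3, 16.2, 15.0 and 21.5 CPM, a log2 fold change of -0.58 ± 0.24 (SE) with an adjusted p of 0.291. Of these rats 3 were below the lowest control. The beta chains RT1-Bb and RT1-Db1 were at 13.8 to 17.9 and 11.9 to 19.9 CPM in IMZ + CTD, and their control medians were 20.0 and 19.04 CPM. Summed over the 4 chains, the level was 102 ± 28.1 CPM in controls (SD, n = 8), 106 ± 33.9 in THI, 133 ± 43.6 in IMZ and 98.7 ± 44.9 in CTD. In the mixtures it was 99.99 ± 20.1 in THI + IMZ, 76.8 ± 15.2 in THI + CTD and 73.8 ± 16.7 in IMZ + CTD. These means lay within the spread between control rats. Kupffer cell markers summed to 510 ± 38.6 CPM in IMZ, where the mean of the chains was highest, and to 393 ± 103 in IMZ + CTD, where it was lowest (SD, n = 4 each), with 0 of 8 markers called in either. The marker sum was lowest in THI + CTD, at 364 ± 58.7 CPM (n = 4). It was 409 ± 96.5 in CTD (n = 3) and 409 ± 56.2 in THI + IMZ (n = 4), against 477 ± 77.9 in controls (n = 8). In CTD and THI + IMZ the chains were near the control mean. The part of the Kupffer cell markers in the class II values was not tested.

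Cd74, the invariant chain, was at 77.7, 106 and 162 CPM in the lowest, median and highest control. It was at 198, 126, 147 and 90.6 CPM in IMZ, and at 137, 54.4 and 123 CPM in CTD. The CTD group therefore held a rat below every control beside a pair within the control range, and leaving out 1 rat moved its log2 fold change between -0.28 and 0.27. Ciita, the class II transactivator, was at 1.79, 2.40 and 3.91 CPM in the lowest, median and highest control, and at 2.36, 1.87, 1.32 and 1.37 CPM in THI + CTD. Its log2 fold change there was -0.53 ± 0.23 (SE, adjusted p = 0.212), with the lowest pair under all controls.

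The other class II genes had a mean under 1 CPM. RT1-DOa and RT1-DOb were detected in every rat, at no less than 0.134 and 0.221 CPM. RT1-DOa and RT1-DOb, chains of the modulator of peptide loading, had control means of 0.479 and 0.626 CPM, and RT1-Db2 one of 0.0704 CPM. RT1-DMa and RT1-DMb, which exchange the invariant chain's fragment for a peptide, are each listed under a pair of gene identifiers, and none of the 4 exceeded 0.0975 CPM in a rat. The study used only uniquely mapped reads, so reads that map equally to both copies were not counted and these levels are uncertain.

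**Figure D2:**
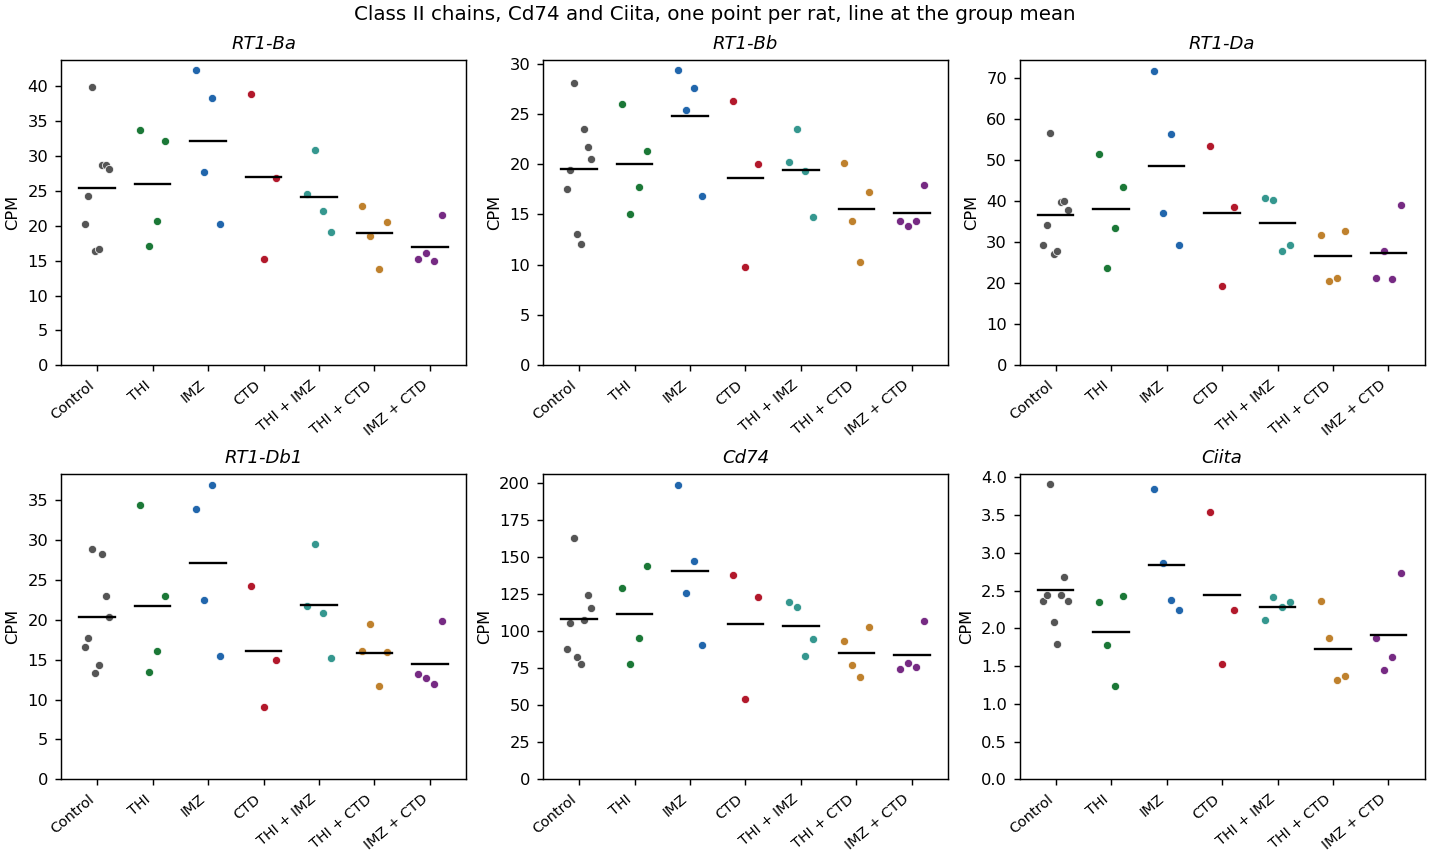
Level in CPM (vertical axis, from 0) of RT1-Ba, RT1-Bb, RT1-Da, RT1-Db1, Cd74 and Ciita in each rat (points) of the 7 groups, with the group mean as a line. The groups overlap for each gene, and the same CTD rat is lowest in its group for RT1-Ba, RT1-Da and Cd74, at 15.2, 19.2 and 54.4 CPM.

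The class II chains varied together with Cd74 and with markers of the cells that make them. Over the 31 rats, after each group's mean was subtracted on the log2 scale, Pearson's r of the summed 4 chains with Cd74 was 0.943 (permutation p = 1e-05, the smallest that 100000 resamples can give; adjusted over 11 relations, 0.00011), Spearman's rho was 0.917 (permutation p = 1e-05), and r without the 2 most distant rats was 0.929. With Ciita r was 0.761 (permutation p = 6e-05, adjusted 0.00022), rho was 0.708 (permutation p = 0.00028), and r without these rats was 0.694. With the Kupffer cell markers r was 0.695 (permutation p = 4e-05, adjusted 0.00022), rho was 0.657 (permutation p = 0.00018), and r without the same rats was 0.631.

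Dendritic cell markers gave r = 0.666 (permutation p = 0.00017, adjusted 0.00047), rho = 0.693 (permutation p = 9e-05) and 0.588 without the 2 rats, both of the CTD group. The T and NK cell list gave r = 0.513 (permutation p = 0.0076, adjusted 0.017), rho = 0.487 (permutation p = 0.013) and 0.494 without them. Of that list's sum of 20.9 CPM in controls, 18.7 CPM was Cd4, which macrophages and dendritic cells of the rat also carry, and 6 of its 10 markers were under 0.1 CPM, so the summed level was mainly that of Cd4. For class I the summed level gave r = -0.126 (permutation p = 0.57) and rho = -0.149 (permutation p = 0.5), so no relation between the classes was detected. The remaining 5 marker lists (hepatocyte, B and plasma cell, neutrophil and monocyte, sinusoidal endothelium, stellate cell) had adjusted permutation p of 0.086 to 0.92. Within a group all rats share their treatment, and all values share the library's scaling.

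**Figure D3:**
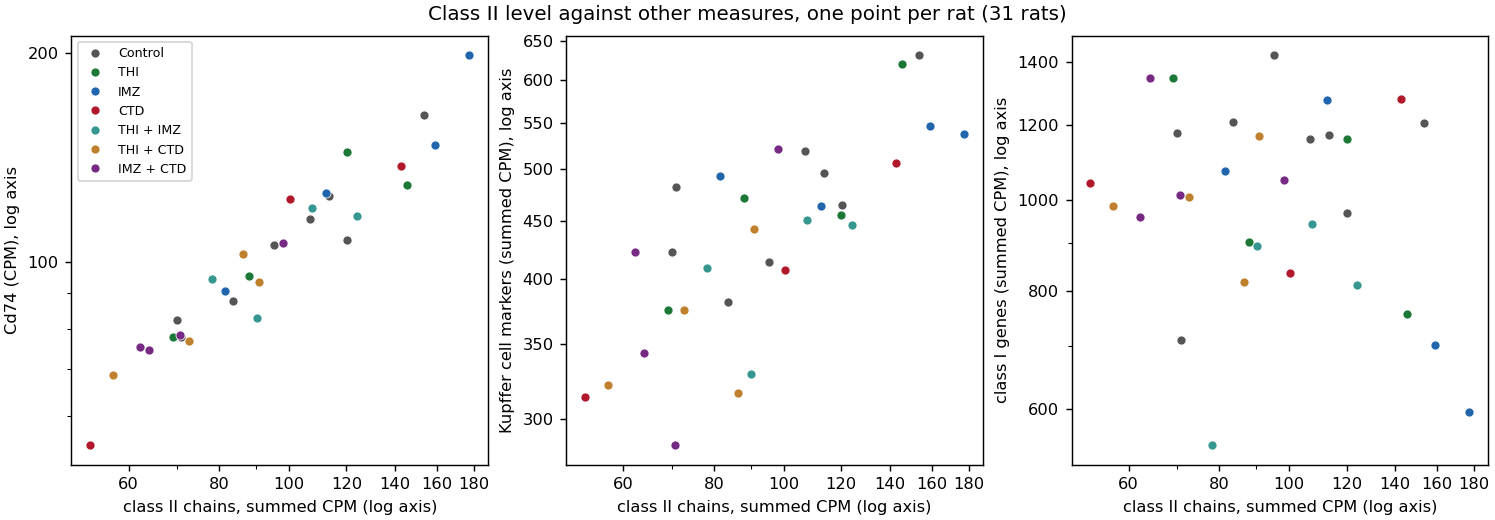
Cd74, the summed Kupffer cell markers and the summed class I genes (vertical axes, CPM, log scale) against the summed CPM of the 4 class II chains (horizontal axes, log scale), with 1 point for each of the 31 rats, coloured by group. The points line up with Cd74 (r = 0.943 within groups), are more scattered with Kupffer cell markers (0.695) and show no line with class I (-0.126).

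Class I genes differed between untreated rats more than most genes did. Among controls the highest level was at least 3 times the lowest for 9 of the 19 class I genes of 1 CPM or more (47.4%), compared with 4.37% of all 11250 genes of that level. The median ratio of the highest to the lowest control was 2.42 for class I (1.39 to 9.03), 2.24 for class II and 1.47 for the accessory genes, against 1.42 for all genes. Class I genes are close copies of each other, and the study used only uniquely mapped reads. Reads that map equally to several copies were therefore not counted, and the levels rest on the other reads. The genome used for mapping is that of another strain, and the sources used here give no RT1 haplotype of the rats. A difference in transcript level and a difference in how well a haplotype's reads map cannot be told apart.

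For several class I genes the rats fell at separate levels, described here after the values were seen and without a test. RT1-A2, a classical class I heavy chain, was at 170 to 200 CPM in 5 rats and at 317 to 668 CPM in the other 26. The same 5 rats were lowest for RT1-CE10 (23.9 to 28.3 against 43.5 to 94.6 CPM) and for RT1-CE1 (14.3 to 19.4 against 22.7 to 47.6 CPM). They were control rat 5, THI rat 1, IMZ rats 1 and 3 and THI + IMZ rat 4, with none from the 3 groups that received CTD. For RT1-A1, a second classical heavy chain, 3 of these rats were at 28.2 to 42.2 CPM and the other 28 at 86.5 to 182 CPM. For RT1-A3, 2 of them were at 21.6 to 24.7 CPM and the others at 55.8 to 134 CPM. These 2, control rat 5 and IMZ rat 1, had the highest RT1-CE4 instead, at 16.1 and 15.5 CPM, above 12.2 CPM in all others.

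RT1-N2 and RT1-N3, class I-like genes, divided the rats differently. RT1-N2 was at 34.4 to 55.9 CPM in 8 rats and at 3.11 to 15.7 CPM in the other 23. The same 8 rats held the highest RT1-N3, at 12.0 to 19.2 CPM against 2.36 to 7.39 CPM. They were 3 of the 8 controls and 1 rat in each treatment except THI + IMZ, which had none. In THI + IMZ, RT1-N2 was at 11.9, 3.30, 3.11 and 6.27 CPM and the lowest control was at 6.19 CPM. Its log2 fold change was -2.10 ± 0.74 (SE, adjusted p = 0.211). The groups compared had unequal shares of rats at the higher level, and the part of this in the fold change was not tested. For RT1-N3 the log2 fold change was -1.65 ± 0.51 (SE, adjusted p = 0.133), and DESeq2 called it (adjusted p = 0.0404). All THI + IMZ rats were below the lowest control for RT1-N3, at 4.16 CPM, as for 0.663% of all genes.

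**Figure D4:**
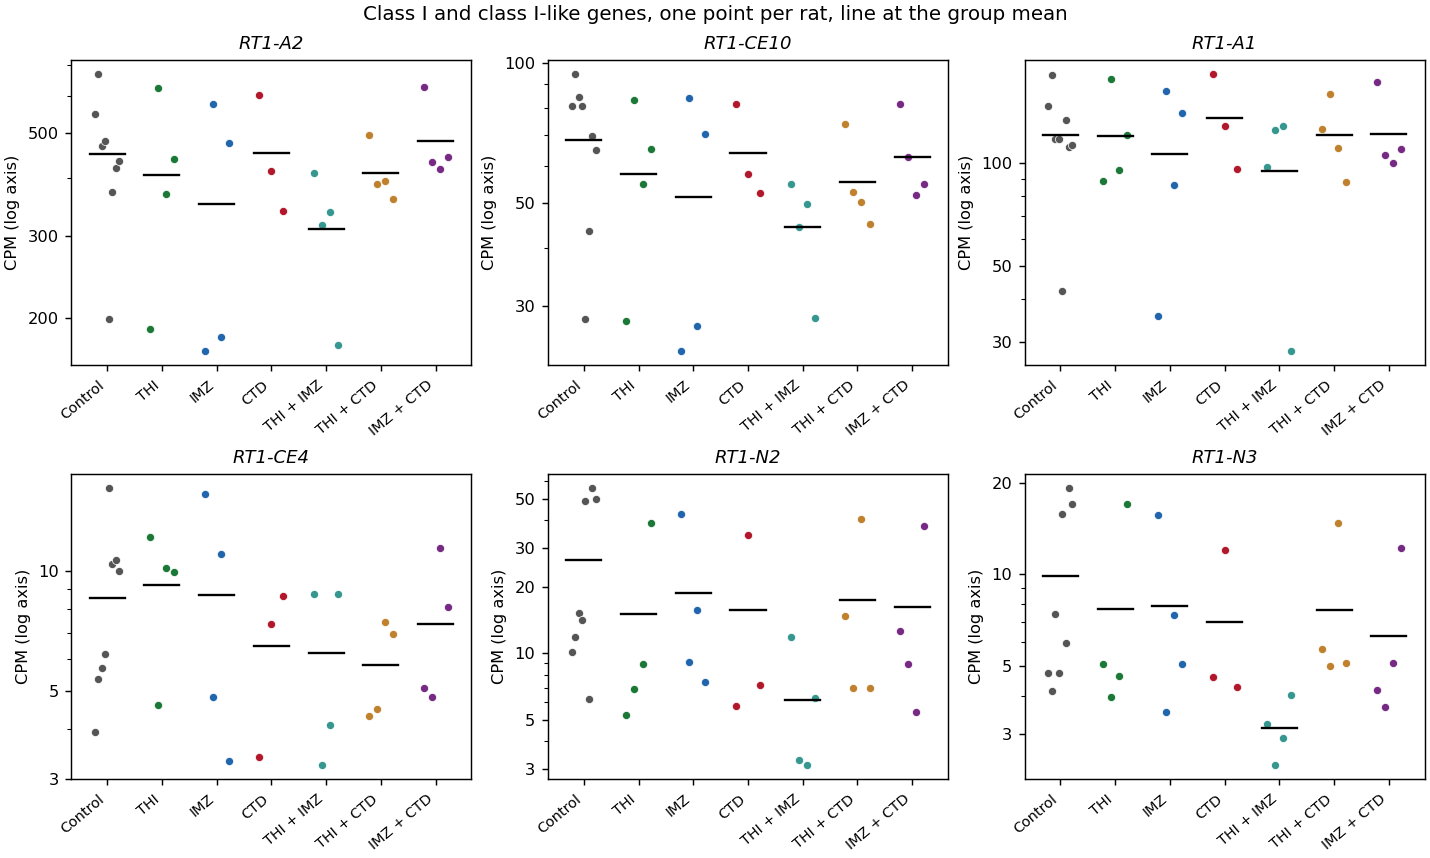
Level in CPM (vertical axis, log scale) of RT1-A2, RT1-CE10, RT1-A1, RT1-CE4, RT1-N2 and RT1-N3 in each rat (points) of the 7 groups, with the group mean as a line. For RT1-A2 and RT1-CE10 the same 5 rats lie below a gap, and for RT1-N2 and RT1-N3 the same 8 rats lie above one.

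The 3 class I genes with the highest mean CPM were not called in any treatment. RT1-A2 was at 200, 452 and 668 CPM in the lowest, median and highest control and at 410, 317, 338 and 175 CPM in THI + IMZ. RT1-A1 was at 42.2, 117 and 181 CPM in the lowest, median and highest control and at 97.0, 125, 128 and 28.2 CPM in THI + IMZ. RT1-CE5 was at 97.8, 127 and 136 CPM in the same order of controls and at 121, 64.5, 81.4 and 87.1 CPM in THI + IMZ. For RT1-CE5 3 of the 4 treated rats lay under all controls, with a log2 fold change of -0.47 ± 0.13 (SE, adjusted p = 0.0672), and DESeq2 called it (adjusted p = 0.0167). For RT1-A2 and RT1-A1 the groups overlapped. The summed class I level was 1129 ± 209 CPM in controls (SD, n = 8) and 799 ± 175 in THI + IMZ, the lowest of the 7 group means, with 911 ± 318 in IMZ next. The IMZ rats at the lower level of RT1-A2, 1 and 3, had sums of 596 and 701 CPM and the other pair 1277 and 1072, and THI + IMZ rat 4, also at that level, had 549 CPM against 813 to 942 in its group.

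RT1-T24-3, a class I-like gene, changed most clearly. Controls were at 4.60, 6.03 and 8.01 CPM (lowest, median, highest), whereas the THI + IMZ rats were at 2.998, 2.69, 1.81 and 3.15 CPM, from 70 to 149 counts. All 4 treated rats were below all 8 controls, as 0.663% of all genes were. The log2 fold change was -1.20 ± 0.19 (SE, adjusted p = 0.000584), and it remained past the threshold in each of 37 alternative settings (adjusted p between 2.75e-07 and 0.0354). With THI alone the rats were at 11.9, 5.55, 5.62 and 7.48 CPM and with IMZ alone at 7.33, 6.94, 8.25 and 5.81 CPM, none below the lowest control.

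RT1-CE15, a further class I gene, fell in THI + IMZ. It was at 6.52, 8.22 and 11.2 CPM in the lowest, median and highest control and at 6.96, 4.70, 4.87 and 6.99 CPM in THI + IMZ. One pair of treated rats was below all controls and the other pair above the lowest. The log2 fold change was -0.55 ± 0.14 (SE, adjusted p = 0.0429). Leaving out control rat 3, 5, 7 or 8 gave an adjusted p of 0.0657, 0.0894, 0.0859 or 0.0906, and leaving out THI + IMZ rat 2 or 3 gave 0.217 or 0.20. Without THI rat 3, THI + CTD rat 1 or IMZ + CTD rat 2 or 4, which are in neither group compared, it was 0.0513, 0.0503, 0.0535 or 0.0522.

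RT1-S3, another class I gene, fell in CTD. Controls were at 70.1, 103 and 143 CPM (lowest, median, highest), and CTD rats at 44.0, 83.7 and 62.4 CPM. CTD rats 1 and 3 were below all controls, while rat 2 was above the lowest. Its log2 fold change was -0.75 ± 0.23 (SE, adjusted p = 0.0302). Without CTD rat 1 or 3 the adjusted p was 0.227 or 0.0858, and without control rat 3, 7 or 8 it was 0.0503, 0.0546 or 0.0515. In THI + IMZ the rats were at 56.0, 55.6, 73.3 and 75.2 CPM, a log2 fold change of -0.71 ± 0.21 (SE, adjusted p = 0.0983) that DESeq2 called (adjusted p = 0.0218).

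RT1-S2, a gene under 1 CPM that was named after its values were seen, also fell in CTD. Controls were at 0.514, 0.812 and 1.28 CPM (lowest, median, highest), from 22 to 84 counts, and CTD rats at 0.416, 0.155 and 0.308 CPM, from 16, 6 and 10 counts. All 3 CTD rats were below all 8 controls, again as for 5.48% of all genes, with a log2 fold change of -1.54 ± 0.37 (SE, adjusted p = 0.00428). Without CTD rat 2 it was -1.23 (adjusted p = 0.0541).

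Psmb8, the immunoproteasome subunit that replaces Psmb5, was the only member that edgeR called in 2 treatments. It was at 77.9, 85.1 and 99.2 CPM in the lowest, median and highest control. It was at 60.2, 69.3 and 58.5 CPM in CTD, and at 45.7, 67.3, 72.8 and 55.8 CPM in THI + IMZ. Both groups lay wholly below the controls, as 5.48% of all genes did in CTD and 0.663% in THI + IMZ. The log2 fold change was -0.48 ± 0.14 in CTD (SE, adjusted p = 0.0206) and -0.53 ± 0.13 in THI + IMZ (adjusted p = 0.0256). The CTD call was lost without CTD rat 1 or 3 (adjusted p = 0.0982 or 0.0904), and the THI + IMZ call without control rat 3 or 7 (0.0509 or 0.0540) or THI + IMZ rat 1 or 4 (0.147 or 0.0967).

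Psmb8 was called in no other treatment by edgeR. It was at 80.3, 68.4, 72.8 and 69.8 CPM in THI, with 3 of 4 rats below all controls (log2 fold change -0.26, adjusted p = 0.556). In IMZ it was at 60.3, 73.9, 86.1 and 72.1 CPM, again with 3 of 4 below all controls (-0.26, adjusted p = 0.616). In THI + CTD it was at 87.0, 83.3, 74.9 and 47.7 CPM, and in IMZ + CTD at 80.9, 84.5, 67.7 and 88.3 CPM, both overlapping the controls.

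The other immunoproteasome subunits, Psmb9 and Psmb10, were not called. Psmb9 was at 35.2, 42.7 and 51.7 CPM in the lowest, median and highest control and at 21.2, 29.6, 35.05 and 37.7 CPM in THI + IMZ, a log2 fold change of -0.44 ± 0.13 (SE, adjusted p = 0.102), which DESeq2 called (adjusted p = 0.0359). Psmb10 was at 29.8, 35.6 and 39.7 CPM in the lowest, median and highest control and at 42.5, 43.7, 37.5 and 40.6 CPM in IMZ + CTD, with 3 of 4 rats above all controls (log2 fold change 0.22 ± 0.08, adjusted p = 0.235). Summed over the 3 subunits, the level was 165 ± 12.8 CPM in controls (SD, n = 8), 143 ± 11.9 in THI, 140 ± 12.0 in IMZ, 132 ± 3.78 in CTD, 121 ± 20.3 in THI + IMZ, 139 ± 24.5 in THI + CTD and 165 ± 16.2 in IMZ + CTD.

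Tap2, a subunit of the peptide transporter, fell in CTD. It was at 2.35, 2.79 and 4.07 CPM in the lowest, median and highest control and at 1.66, 1.47 and 2.03 CPM in CTD, with all 3 rats below all controls, as for 5.48% of all genes. The log2 fold change was -0.77 ± 0.19 (SE, adjusted p = 0.0061), and without CTD rat 2 it was -0.67 (adjusted p = 0.0564). Its partner Tap1 was at 31.8, 44.7 and 52.3 CPM in the lowest, median and highest control, at 33.7, 40.5 and 30.02 CPM in CTD (log2 fold change -0.32 ± 0.15, adjusted p = 0.155) and at 28.2, 34.2, 37.8 and 30.3 CPM in THI + IMZ (-0.41 ± 0.13, adjusted p = 0.145). Tap1 overlapped the controls in both groups.

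Tapbp, or tapasin, had the narrowest control range of the members of 1 CPM or more, at 82.6, 86.9 and 90.5 CPM (lowest, median, highest). In THI it was at 112, 90.9, 92.8 and 97.4 CPM, all above the controls, which 0.734% of all genes were too. The log2 fold change was 0.18 ± 0.07 (SE, adjusted p = 0.438). In CTD it was at 82.1, 78.4 and 70.8 CPM, all below the controls, which 5.48% of all genes were, with a log2 fold change of -0.17 ± 0.08 (SE, adjusted p = 0.168).

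B2m, the light chain, was at 836, 981 and 1038 CPM in the lowest, median and highest control and at 877, 808, 795 and 842 CPM in THI + IMZ. Of these 2 were below all controls, and the log2 fold change was -0.21 ± 0.08 (SE, adjusted p = 0.283).

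**Figure D5:**
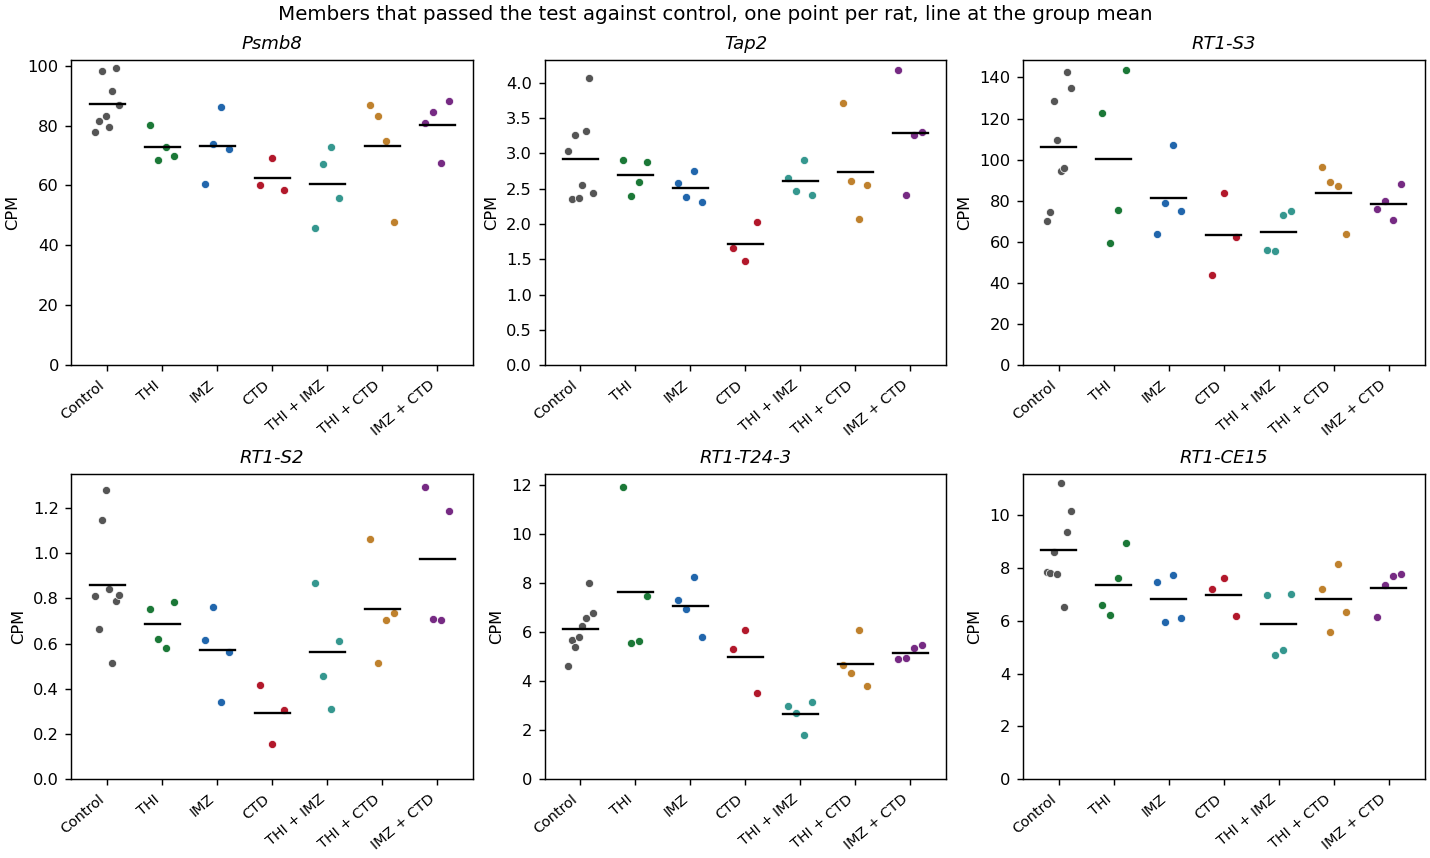
Level in CPM (vertical axis, from 0) of the 6 members called against control, Psmb8, Tap2, RT1-S3, RT1-S2, RT1-T24-3 and RT1-CE15, in each rat (points) of the 7 groups, with the group mean as a line. The 3 CTD rats lie below all 8 controls for Psmb8, Tap2 and RT1-S2, and the 4 THI + IMZ rats do so for Psmb8 and RT1-T24-3.

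THI + IMZ had the most members near the threshold. At an unadjusted p under 0.05, 14 of the 48 were lower (29.2%) and none higher, against 5.21% of all genes lower. These were 9 class I genes and 5 accessory genes, the latter Psmb8, Psmb9, Psmb10, Tap1 and B2m. Among 17 measured interferon-stimulated genes, 5 were called lower in the same comparison at an adjusted p under 0.05. At that threshold 1.18% of all genes were called and 0.332% called lower. The 5 were Mx2 (log2 fold change -2.195), Usp18 (-2.17), Irf7 (-1.68), Mx1 (-1.66) and Isg15 (-1.59). Cxcl9, an interferon-induced chemokine, rose (0.91), and the median of the list was -0.98 against -0.02 for all genes. The list's summed level was 326 ± 50.02 CPM in controls (SD, n = 8) and 228 ± 19.5 in THI + IMZ, and its part in the lower members was not tested. Nlrc5, the transactivator of class I genes, had a log2 fold change of -0.42 (adjusted p = 0.152).

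In CTD the Kupffer cell markers summed to 409 ± 96.5 CPM (SD, n = 3), with 314 to 507 CPM in single rats against 381 to 632 CPM in controls. Of the 8 markers, Csf1r, the receptor for macrophage colony-stimulating factor, fell (log2 fold change -0.39, adjusted p = 0.0439). Zbtb46, a transcription factor of dendritic cells, fell as well (-0.67, adjusted p = 0.00217), 1 of 8 markers called on that list. These counts of 1 in 8 stand beside 12.7% of all genes called in CTD. In THI + CTD the Kupffer markers summed to 364 ± 58.7 CPM (SD, n = 4, 316 to 442), with 2 of 8 lower, Csf1r (-0.49) and the scavenger receptor Cd163 (-0.50), beside 4.39% of all genes called. In THI + IMZ they summed to 409 ± 56.2 CPM (329 to 451) with 0 of 8 called. The part of these cells in the members' values was not tested.

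For the mixtures, the study asked whether effects follow from the doses of the single compounds, so the log2 fold change in each mixture was set against a sum over its parts weighted by dose (0.5 of THI or IMZ and 0.47 of CTD). RT1-T24-3 in THI + IMZ was below its sum, 1 of 48 members against 0.0151% of all genes. The mixture was at -1.20 and the sum at 0.26, with 0.31 for THI and 0.21 for IMZ. The difference was -1.46 ± 0.20 (SE, adjusted p = 0.000395), and it was past the threshold in all 37 alternative settings.

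In IMZ + CTD 3 members were above their sum, against 1.16% of all genes called and 0.693% called higher. Tap2 was at 0.17 in the mixture against a sum of -0.47, a difference of 0.64 ± 0.16 (SE, adjusted p = 0.0458). Its levels in the mixture were 4.18, 2.41, 3.26 and 3.31 CPM, all above the 3 CTD rats. RT1-S2 was at 0.18 against -1.02, a difference of 1.197 ± 0.30 (SE, adjusted p = 0.0401). Psmb10 was at 0.22 against -0.14, a difference of 0.36 ± 0.09 (SE, adjusted p = 0.0332).

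These 3 calls lay just past the threshold, and leaving out any of several libraries ended them. That of Tap2 was lost in 18 of the settings that left out 1 library (difference 0.50 to 0.66). That of RT1-S2 was lost without IMZ rat 1, 3 or 4, CTD rat 2 or any IMZ + CTD rat (1.03 to 1.32), and that of Psmb10 without IMZ rat 2 or 3, CTD rat 1 or 2 or any IMZ + CTD rat (0.31 to 0.39). DESeq2 gave no adjusted p for RT1-S2 in this contrast. In the same contrast RT1-Ba was below its sum (-0.79 ± 0.25, adjusted p = 0.106; DESeq2 adjusted p = 0.0252). The other 3 chains differed by -0.64 for RT1-Da, -0.55 for RT1-Db1 and -0.51 for RT1-Bb without passing the threshold. In THI + CTD no member was called in edgeR or DESeq2 (0.286% of all genes called), with 3 members against 9.66% of all genes at an unadjusted p under 0.05.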

How the data were processed

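Liver total RNA of 31 rats was sequenced. Per the submitters' notes and the study's methods, the authors aligned reads with STAR 2.5.2b to Rnor_5.0, checked them with FastQC 0.11.5 and used DESeq2 1.15.1. The annotation release and strand setting of the counting are not given in the sources used here. The authors deposited raw counts per gene (26312 genes) and a table of normalized signal. The deposited signal equalled the counts divided by 1 factor per library (largest relative deviation 5.33e-15) and was not tested.

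Genes with a summed count of 2 or more (19904) were tested with edgeR 4.0.16 in R 4.3.3 (limma 3.58.1): TMM scaling, 1 quasi-likelihood model over the 7 groups, Benjamini-Hochberg adjustment over all genes, threshold 0.05. SE is the absolute log2 fold change divided by the root of F. CPM used the TMM-scaled totals. Alternatives were DESeq2 1.42.0 and its size factors, other filters, a fit of the compared groups, a replicate block and each library left out. The scripts were tested on simulated data. Relations used 100000 permutations within groups (numpy 2.4.6, pandas 2.3.3, scipy 1.17.1 in Python 3.11.15). Figures were drawn with matplotlib 3.10.9.

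The members and lists were chosen with earlier results of these data known. Values per rat are given for members called at 1 CPM or more, the accessory genes, the expressed class II chains and the 3 class I genes of highest mean CPM. RT1-S2, the genes with rats at separate levels and the promoter letters were added after the values were seen.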

Additional observations from a re-analysis of the deposited data

Results flagged for a closer look

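In 5 of 114 groups of 4 to 8 rats checked, 1 rat stood apart by Dixon's criterion, and chance gives about 5% of groups. Cd74 in IMZ + CTD rat 4 was at 106 CPM, whereas the others were at 74.6 to 78.4. RT1-Bb in the same rat was at 17.9 CPM, the others at 13.8 to 14.4. RT1-A2 in IMZ + CTD rat 1 was at 626 CPM, the others at 417 to 444. RT1-A1 in that rat was at 172 CPM, the others at 100.2 to 109. RT1-A1 in control rat 5 was at 42.2 CPM, the others at 112 to 181. No member called against control is among these.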

How the results depend on the processing

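Over 37 alternative settings no called fold change changed sign. Counts of called members moved as follows. DESeq2 called 5 class I genes in THI + IMZ (2 in edgeR, with RT1-CE5, RT1-S3 and RT1-N3 added) and 2 accessory genes (1 in edgeR, with Psmb9 added). In CTD it called 3 class I genes (2 in edgeR, with RT1-CE7 added), and against the IMZ + CTD sum its 3 calls were Psmb10, Tap2 and RT1-Ba. A fit of only the compared groups called 1 class I gene in THI + IMZ, and 1 member against the IMZ + CTD sum instead of 3. Counting only members of 1 CPM or more, a setting chosen after seeing the data, left 1 class I gene in CTD.

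Leaving out 1 library gave 1 to 3 class I and 1 to 2 accessory calls in CTD, 1 to 3 class I and 0 to 1 accessory calls in THI + IMZ, 0 to 1 class I calls in THI + CTD, 0 to 3 members against the IMZ + CTD sum, and 1 against the THI + IMZ sum. The class I call in THI + CTD, RT1-M2, appeared without THI + CTD rat 1. All other counts of class I, class II and accessory calls stayed at 0.

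Samples of equal replicate number did not in general deviate together (r from -0.30 to 0.48, median 0.036, against -0.0085 for other numbers). No pairing by number was seen, but a correlation over many genes cannot exclude one that touches few genes or groups. A replicate block gave 1 accessory call in CTD, 0 in THI + IMZ and 1 class I call in THI + CTD. With the block RT1-CE15 and Psmb8 in THI + IMZ had adjusted p of 0.287 and 0.1997, and RT1-S3 and Psmb8 in CTD 0.235 and 0.0703, while RT1-CE7 was called in CTD, THI + IMZ and THI + CTD. The class I median in THI was then 0.0058, above 0. The cause of these moves was not tested. Depth limits RT1-S2, with as few as 6 counts in a rat, and the RT1-DM genes.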

Other observations

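The remaining genes of the pathway were counted from fixed lists. Of 7 class I loading genes only Canx, the chaperone calnexin, was called, and it rose in CTD (449 ± 41.8 CPM in controls and 591 ± 29.3 in CTD, SD; log2 fold change 0.40, adjusted p = 0.00184). Of 14 class II loading and endosomal genes, Rfx5 and Creb1, factors that bind class II promoters, rose in CTD (0.63 and 0.30). In CTD 12.7% of all genes were called, so 1 of 7 and 2 of 14 are near that share. In THI + CTD the endosomal proteases Ctss and Lgmn fell (-0.59 and -0.37) while Ctsd, a lysosomal aspartic protease, rose (0.28), 3 of 14 where 4.39% of all genes were called. None of 5 proteasome activator and constitutive subunits and none of 5 costimulation genes was called in any treatment by edgeR.

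Irf8, an interferon regulatory factor of myeloid cells, was the one of 10 interferon gamma signalling genes called, and it fell in CTD (10.1 ± 1.96 CPM in controls and 5.67 ± 1.40 in CTD, SD; log2 fold change -0.82, adjusted p = 0.000958) and in THI + CTD (-0.51, adjusted p = 0.0405). Cxcl9 rose in IMZ (1.03), CTD (1.09) and THI + CTD (1.08) as well as in THI + IMZ. Cd4 was lower in THI + CTD (-0.56), the one of 10 T and NK cell markers called. Among 4 stellate cell markers Reln fell in CTD (-0.46) and in THI + CTD (-0.47), and Colec11 fell in THI + CTD (-0.28). Of 6 hepatocyte markers Apoa1 rose in THI + IMZ (0.85). No marker of B and plasma cells, neutrophils and monocytes or sinusoidal endothelium was called in any treatment by edgeR. In CTD 12.7% of all genes were called, so 1 of 10 for Irf8 is near that share. The shares were 4.39% in THI + CTD, 1.18% in THI + IMZ and 0.251% in IMZ. The 6 comparisons share the control rats.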
